A study of Mus musculus with 47 samples.

Results

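Glycolysis breaks glucose down to pyruvate, and several of its steps can be run by more than 1 enzyme encoded by separate genes. The 10 genes described here encode such enzymes: Hk1 and Hk2 (hexokinases, which trap glucose in the cell by phosphorylation), Pfkl, Pfkm and Pfkp (liver, muscle and platelet type subunits of phosphofructokinase, the committed and highly regulated step), Aldoa and Aldoc (aldolases, which split fructose bisphosphate), Eno1 (enolase, which makes phosphoenolpyruvate), and Ldha and Ldhb (lactate dehydrogenase subunits, which interconvert pyruvate and lactate). They were found by gene symbol and Ensembl identifier in the count tables of both sexes, 10 of 55416 gene identifiers. The 10 were chosen by name with their measured levels and log2 fold changes against Control in these same libraries known, so their diet differences, ratios, calls and p-values against Control are given as a description of these libraries and are not independent evidence of a direction.

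The libraries came from brains of homozygous 3xTg mice, a mouse model of AD that carries 3 human transgenes with mutations linked to AD and dementia. At 6 months of age mice were put on an amino acid defined Control diet or on a restricted one, short of valine (ValR), of leucine (LeuR) or of isoleucine (IleR), and stayed on it for 9 months, to an age of 15 months. Every group carries the same transgenes, so no group without them is used here. Males gave 4 Control libraries, 4 ValR, 3 IleR and 3 LeuR, while 6 libraries each of Control, ValR and LeuR and 5 of IleR came from females, each named here by its diet and its own number. Of 47 libraries in the labels, 10 male ones are not analysed here. Whether each library is a separate mouse is not stated in the labels. The study's figure legends for these data count 4 to 5 mice a group in males and 5 to 6 animals a group in females. The p-values here measure the spread between these libraries. Per the methods the RNA came from the left hemisphere, while the protocol given with the labels names liver; neuronal markers summed to at least 4078 CPM (counts of a gene scaled to the library's TMM-adjusted total) and astrocyte markers to at least 2587 CPM in every library.

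In the brain, neurons and astrocytes use different members of these enzyme pairs. Aldoc, also known as zebrin II, is known as an astrocyte gene and as a marker of bands of cerebellar Purkinje cells, Hk1 is the main hexokinase of neurons, and lactate dehydrogenase subunit composition differs between neurons and astrocytes. The data are bulk RNA, in which fewer cells of a type and less RNA per cell cannot be told apart. Total counts ran from 12682687 to 25722333 in the 14 male libraries and from 10672599 to 21370973 in the 23 female libraries, and levels are given in CPM.

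The male libraries differed by diet in a brain region signature that none of the 10 genes belongs to. Its measure, here called the hindbrain score, is the average log2 CPM over cerebellum, brainstem and spinal cord marker genes minus the average over 10 forebrain marker genes. It lay between -7.47 and -4.50 in the Control-fed males, between 1.96 and 4.42 in IleR, between -3.23 and 4.46 in LeuR, and between 4.12 and 5.57 in ValR, with no overlap between Control and any restricted diet. The summed level of the cerebellum markers was 47.3 to 91.7 CPM in Control-fed males, with Gabra6, the granule cell receptor subunit, at no more than 3 counts in every one, and 245.7 to 4998 CPM in the males on a restricted diet. The forebrain markers summed to between 721.5 and 2214 CPM in Control-fed males and to between 113.1 and 312.0 CPM in the males on a restricted diet. In females the score ran from -7.45 to 4.43 and the ranges of all 4 diets overlapped. Diet and score therefore cannot be told apart in the males, in any of the male comparisons with Control below.

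All 10 are protein-coding genes, placed on GRCm38 by GENCODE with the strand in brackets. The hexokinase and phosphofructokinase genes are Hk1 ENSMUSG00000037012 at chr10:62268855-62379908 (minus), Hk2 ENSMUSG00000000628 at chr6:82725025-82774454 (minus), Pfkl ENSMUSG00000020277 at chr10:77986947-78010083 (minus), Pfkm ENSMUSG00000033065 at chr15:98092589-98132451 (plus), and Pfkp ENSMUSG00000021196 at chr13:6579768-6648777 (minus). The others are Aldoa ENSMUSG00000030695 at chr7:126795234-126800751 (minus), Aldoc ENSMUSG00000017390 at chr11:78322968-78327781 (plus), Eno1 ENSMUSG00000063524 at chr4:150236721-150248879 (plus), Ldha ENSMUSG00000063229 at chr7:46841475-46855627 (plus), and Ldhb ENSMUSG00000030246 at chr6:142490249-142507957 (minus).

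The promoters of 4 genes that differed most between diets in males are shown first, as the 250 bases before the most upstream start that RefSeq gives for each gene (GRCm38.p6), because Ldha and Pfkl fell while Hk2 and Aldoc rose. The Ldha and Pfkl windows lie inside the GENCODE models of these genes and the Aldoc window partly so, since those models start further upstream. Capitals mark the letters ACGTG and GCGTG on either strand, the core of the hypoxia response element bound by HIF proteins, which are known regulators of glycolytic genes.
Ldha, chr7:46845554-46845803, plus strand: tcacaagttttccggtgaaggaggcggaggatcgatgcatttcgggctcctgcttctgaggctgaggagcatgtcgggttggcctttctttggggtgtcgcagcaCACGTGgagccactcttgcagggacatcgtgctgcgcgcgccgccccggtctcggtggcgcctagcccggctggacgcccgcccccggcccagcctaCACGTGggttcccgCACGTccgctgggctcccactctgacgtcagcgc
Pfkl, chr10:78009808-78010057, minus strand: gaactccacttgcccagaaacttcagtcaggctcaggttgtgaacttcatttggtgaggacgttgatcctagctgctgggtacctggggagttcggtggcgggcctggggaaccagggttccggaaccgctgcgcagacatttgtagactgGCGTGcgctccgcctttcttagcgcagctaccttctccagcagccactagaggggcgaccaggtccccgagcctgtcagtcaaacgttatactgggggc
Hk2, chr6:82774455-82774704, minus strand: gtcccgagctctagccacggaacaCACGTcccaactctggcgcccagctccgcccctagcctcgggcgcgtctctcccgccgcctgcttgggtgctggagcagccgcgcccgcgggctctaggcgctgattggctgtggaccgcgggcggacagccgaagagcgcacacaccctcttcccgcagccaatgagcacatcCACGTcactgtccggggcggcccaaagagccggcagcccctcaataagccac
Aldoc, chr11:78322823-78323072, plus strand: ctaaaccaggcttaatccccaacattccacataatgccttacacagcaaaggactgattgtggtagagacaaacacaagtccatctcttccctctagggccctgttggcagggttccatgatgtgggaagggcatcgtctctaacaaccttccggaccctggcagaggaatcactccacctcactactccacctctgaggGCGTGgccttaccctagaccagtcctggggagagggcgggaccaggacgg
The Ldha window held 5 matches to ACGTG, counted on both strands so that each of the palindromes CACGTG counts as 2, and none to GCGTG. The Hk2 window held 2 matches to ACGTG, while the Pfkl and the Aldoc window each held 1 match to GCGTG. All 10 genes matched a RefSeq window, and 3 of the 10 held ACGTG (Hk2, Pfkm and Ldha), against 16.5% of all 27025 windows of that length. GCGTG stood in 5 of the 10 windows, against 28.3% of all windows, and either motif in 8 of the 10, against 38.6%. RefSeq gives more than 1 start for Hk1, Pfkm, Aldoa, Aldoc, Eno1 and Ldha. Only the most upstream one was searched, so these counts depend on that choice. The genes that rose and those that fell both include windows with a match, and a match is a description of the sequence and not of binding.

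Levels of different genes were compared per kilobase of exon, in the Control libraries. Aldoa led in both sexes, at a median of 473.2 CPM per kb in 4 Control-fed males and 487.0 in 6 Control-fed females. Ldhb (251.8 in males and 261.9 in females) and Aldoc (205.9 and 233.1) followed, with ranges that overlapped between the 2 genes in both sexes. Eno1 (154.8 and 156.3) and Pfkm (121.1 and 121.5) came next, and did not overlap each other in males but did in females. Ldha stood at 64.3 and 70.2, Hk1 at 47.9 and 50.9, Pfkp at 32.2 and 28.6, and Pfkl at 26.9 and 27.7, and of these neighbours Pfkp and Pfkl overlapped in both sexes and Ldha and Hk1 in females only. Hk2 was lowest, at 1.14 and 1.02, and lay 23.6-fold below Pfkl in males and 27.1-fold below it in females. With the median length of the coding transcripts in place of the union of all exons, a choice made after the levels were seen, Aldoa remained first and Hk2 last, but Eno1 moved from the fourth to the second place in both sexes (423.8 CPM per kb in males and 428.0 in females). By the median of the Control libraries, and with either length, Aldoa stood above Aldoc, Ldhb above Ldha, Hk1 above Hk2 and Pfkm above the other phosphofructokinases. Single libraries went against this order: in female Control 30 Aldoc exceeded Aldoa per kb of exon, and by transcript length Pfkp exceeded Pfkm in male Control 1.

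**Figure D1:**
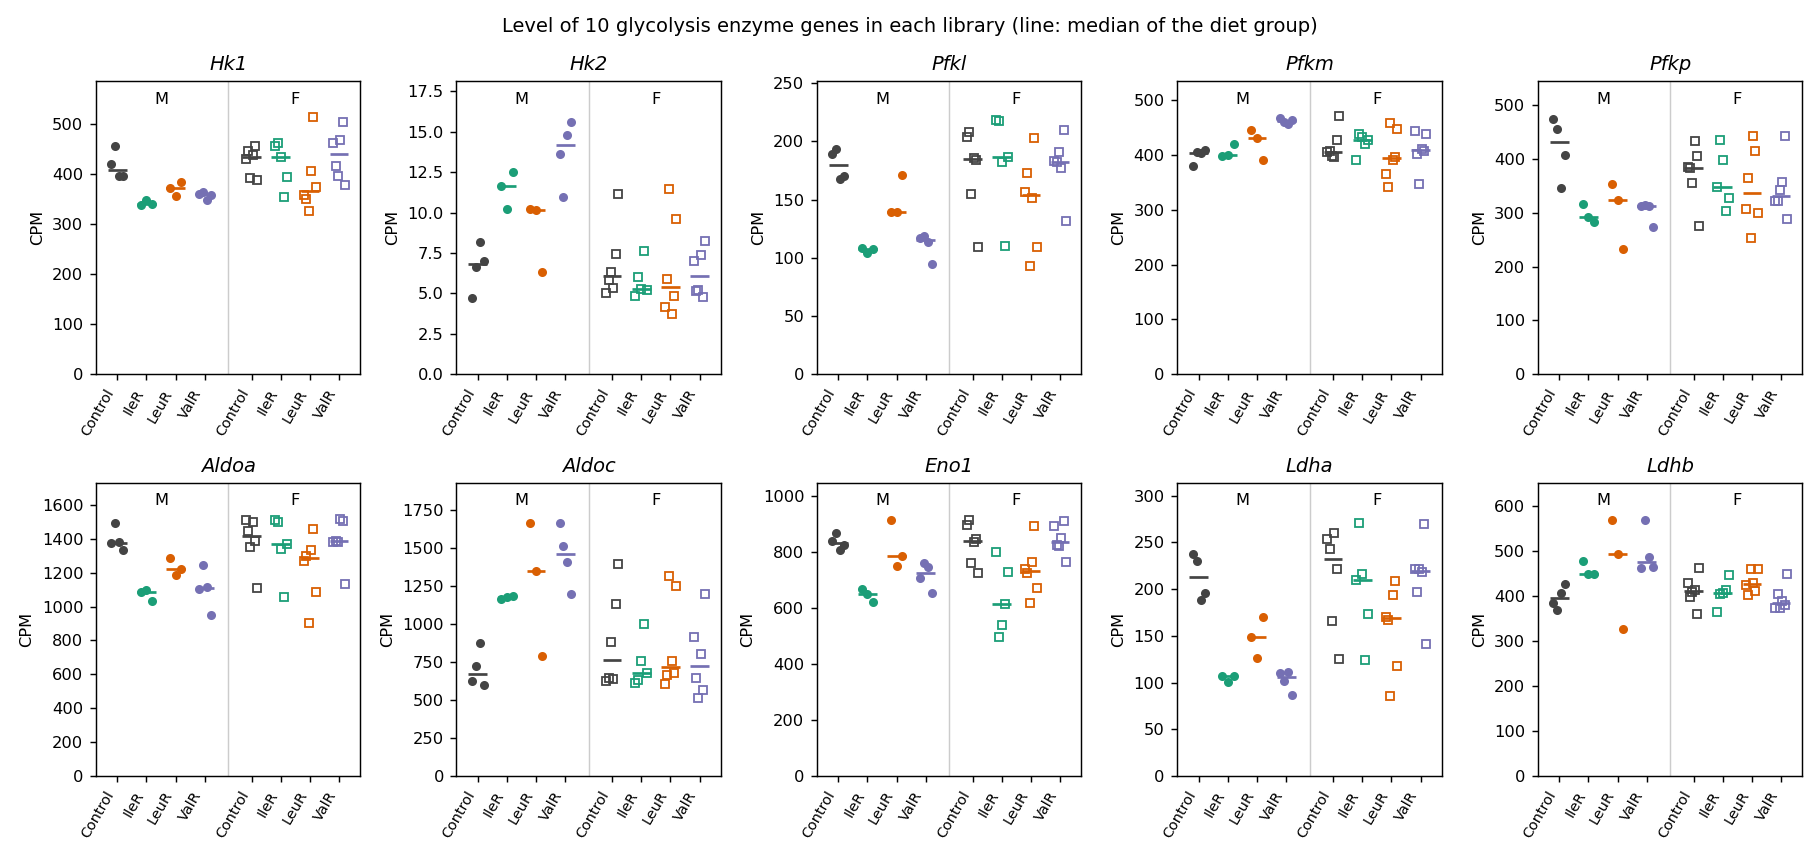
Level in CPM (vertical axis, from 0) of each gene in each library, by diet along the horizontal axis, with males as filled circles, females as open squares and a line at the median of each group. In males Ldha lay between 188.3 and 237.3 CPM in Control and between 86.3 and 169.9 CPM on the restricted diets, while in females every diet spans a range that overlaps Control.

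Against Control-fed males, IleR-fed males had lower levels of Hk1, Pfkl, Pfkp, Aldoa, Eno1 and Ldha and higher levels of Hk2 and Aldoc. That is 6 of 10 genes lower, where 8.68% of all 22197 genes tested were lower, and 2 higher, where 6.63% were higher (an adjusted p-value below 0.05 in the quasi-likelihood test of edgeR, adjusted over all genes by Benjamini-Hochberg). In all 15.3% were called. In ValR-fed males 5 of the 10 were lower (Hk1, Pfkl, Pfkp, Aldoa and Ldha), with 12.4% of all genes lower, and 2 were higher (Hk2 and Aldoc), with 11.1% of all genes higher and 23.5% called in all. In LeuR-fed males 1 was lower (Ldha), with 6.33% of all genes lower, and 1 was higher (Aldoc), with 3.81% of all genes higher and 10.1% called in all. With edgeR fitted to the LeuR and Control libraries alone, neither of these genes was called, nor was any other gene. Over the 10 genes the median log2 fold change came to -0.33 in IleR, -0.10 in LeuR and -0.22 in ValR, beside 0.04, 0.05 and 0.03 over all genes tested. The 3 comparisons share the 4 Control libraries. The libraries of the 2 groups did not overlap for 9 of the 10 genes in IleR (29.3% of all genes), for 3 in LeuR (17.7% of all genes) and for all 10 in ValR (26.4% of all genes). All 10 genes passed the filter on low counts in both sexes. The number of the 10 called depends on single libraries: it was 2 or 3 for IleR without Control 1, Control 3, IleR 13, 14 or 17, it was 0 for LeuR without Control 1, Control 3, LeuR 19 or 20 and 1 without Control 5, and it was 4 for ValR without Control 3 or ValR 12. Ldha and Pfkl in IleR and ValR, and Hk2 and Aldoc in ValR, were called whichever library was left out.

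Hexokinase was represented by Hk1, the abundant form, and by the scarce and inducible Hk2. Hk1 stood at 421.1, 455.6, 396.3 and 395.6 CPM in Control 1, 3, 4 and 5, at 338.4, 348.3 and 341.0 in IleR 13, 14 and 17, at 371.9, 355.5 and 383.6 in LeuR 19, 20 and 21, and at 360.5, 365.2, 348.6 and 359.0 in ValR 7, 9, 10 and 12. Every restricted male lay below every Control-fed male for Hk1, by a small margin. For Hk1 the log2 fold change was -0.28 ± 0.08 (SE) for IleR (adjusted p-value = 0.0276), -0.17 ± 0.08 for LeuR (0.180) and -0.22 ± 0.07 for ValR (0.0439), in edgeR's quasi-likelihood test. The call of Hk1 in ValR was lost without 12 of the 14 libraries in turn, and the calls in IleR and ValR were both lost with only the 2 groups in the fit and without the filter on low counts.

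Hk2 stood at 4.70, 6.63, 8.21 and 6.98 CPM in the same Control-fed males, at 11.7, 10.2 and 12.5 in IleR, at 10.2, 10.1 and 6.32 in LeuR, and at 13.6, 11.0, 14.8 and 15.6 in ValR. These levels rest on 69 to 271 counts of Hk2 per male library. LeuR 21 lay within the Control range, and the other 9 restricted libraries lay above it. Hk2 was higher by a log2 fold change of 0.79 ± 0.21 (SE) in IleR (edgeR, adjusted p-value = 0.0232) and 1.05 ± 0.20 in ValR (0.00196), and its difference in LeuR was 0.42 ± 0.21 (0.224).

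Of the phosphofructokinase genes, Pfkl fell most in IleR and ValR, Pfkp fell in IleR and ValR, and Pfkm did not pass the test of the reported fit in any of the 3 diets. Pfkl stood at 189.1, 193.3, 167.3 and 170.0 CPM in Control 1, 3, 4 and 5, at 108.1, 104.5 and 107.9 in IleR 13, 14 and 17, at 139.4, 139.2 and 171.5 in LeuR 19, 20 and 21, and at 117.5, 119.0, 113.6 and 94.9 in ValR 7, 9, 10 and 12. The IleR and ValR libraries lay well below Control, and LeuR 21 was again inside the Control range. For Pfkl the log2 fold change was -0.75 ± 0.10 (SE) for IleR (edgeR, adjusted p-value = 0.00110), -0.26 ± 0.10 for LeuR (0.121) and -0.69 ± 0.10 for ValR (0.000295).

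Pfkp stood at 473.8, 455.6, 344.8 and 406.4 CPM in the Control-fed males, at 316.9, 291.6 and 282.1 in IleR, at 353.7, 324.0 and 233.3 in LeuR, and at 312.2, 313.3, 313.0 and 273.3 in ValR. Control 4 was the lowest Control library for Pfkp, and LeuR 19 lay just above it. Pfkp had log2 fold changes of -0.50 ± 0.14 (SE) for IleR (edgeR, adjusted p-value = 0.0306), -0.47 ± 0.14 for LeuR (0.0537) and -0.47 ± 0.13 for ValR (0.0194). Pfkm was between 379.8 and 408.7 CPM in Control, 398.4 and 419.4 in IleR, 390.5 and 445.4 in LeuR and 456.4 and 466.8 in ValR. All ValR libraries exceeded all Control libraries for Pfkm, and the log2 fold change was 0.21 ± 0.07 (SE) with an adjusted p-value of 0.0502 in edgeR. DESeq2 and limma voom called Pfkm in ValR and Pfkp in LeuR, which edgeR did not, and DESeq2 also Hk1 in LeuR.

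The 2 aldolase genes moved in opposite directions in IleR- and ValR-fed males. Aldoc stood at 624.4, 719.2, 874.1 and 597.6 CPM in Control 1, 3, 4 and 5, at 1162, 1174 and 1180 in IleR 13, 14 and 17, at 1659, 1349 and 787.2 in LeuR 19, 20 and 21, and at 1662, 1512, 1409 and 1198 in ValR 7, 9, 10 and 12. Each restricted library except LeuR 21 lay above the highest Control library, Control 4. Aldoc had log2 fold changes of 0.74 ± 0.21 (SE) for IleR (edgeR, adjusted p-value = 0.0307), 0.85 ± 0.21 for LeuR (0.0244) and 1.04 ± 0.20 for ValR (0.00211).

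Aldoa, the most abundant member per length, stood at 1374, 1494, 1381 and 1336 CPM in Control, at 1088, 1098 and 1032 in IleR, at 1284, 1188 and 1221 in LeuR, and at 1104, 1245, 1113 and 951.0 in ValR. All 10 restricted libraries lay below all Control libraries for Aldoa. Aldoa had log2 fold changes of -0.38 ± 0.11 (SE) for IleR (edgeR, adjusted p-value = 0.0267) and -0.34 ± 0.10 for ValR (0.0214), and -0.18 ± 0.10 for LeuR (0.288). Without the filter on low counts Aldoa was called in neither IleR nor ValR. Eno1 ranged from 805.7 to 868.9 CPM in Control, from 621.4 to 669.2 in IleR, from 750.8 to 912.9 in LeuR and from 655.3 to 760.1 in ValR. Eno1 fell in IleR by 0.37 ± 0.10 (SE) on the log2 scale (edgeR, adjusted p-value = 0.0211), and its log2 fold change was -0.22 ± 0.09 in ValR (0.0932) and -0.03 ± 0.10 in LeuR (0.865). DESeq2 also called Eno1 in ValR.

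Of the lactate dehydrogenase genes, Ldha showed the largest decrease of the 10 genes, to 0.49 of the Control level in IleR and 0.48 in ValR. Ldha stood at 237.3, 230.2, 188.3 and 195.7 CPM in Control 1, 3, 4 and 5, at 107.0, 100.6 and 106.9 in IleR 13, 14 and 17, at 148.9, 126.2 and 169.9 in LeuR 19, 20 and 21, and at 110.0, 101.5, 111.1 and 86.3 in ValR 7, 9, 10 and 12. No restricted male reached the lowest Control-fed male for Ldha. The mean was 212.9 ± 24.4 CPM (SD, n = 4) in Control, 104.8 ± 3.65 (n = 3) in IleR, 148.4 ± 21.9 (n = 3) in LeuR and 102.2 ± 11.5 (n = 4) in ValR. The log2 fold change of Ldha was -1.02 ± 0.13 (SE) for IleR (edgeR, adjusted p-value = 0.000853), -0.52 ± 0.12 for LeuR (0.0204) and -1.06 ± 0.11 for ValR (0.000110).

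Ldhb, the more abundant subunit gene, lay between 370.1 and 426.2 CPM in Control, between 450.0 and 478.0 in IleR, between 327.6 and 570.4 in LeuR and between 463.6 and 568.5 in ValR. The IleR and ValR libraries all lay above Control for Ldhb, but its log2 fold changes of 0.21 ± 0.15 (SE), 0.23 ± 0.15 and 0.32 ± 0.14 did not pass the test in any diet (edgeR, adjusted p-values of 0.386 for IleR, 0.363 for LeuR and 0.116 for ValR). LeuR 21 was the lowest of the 14 male libraries for Ldhb and LeuR 19 the highest. With edgeR fitted to the ValR and Control libraries alone, Ldhb was called in ValR.

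Without LeuR 21, whose score of -3.23 was the nearest to Control, the LeuR comparison called 4 of the 10 genes instead of 2, and 3340 of all genes instead of 2249. Aldoc then had a log2 fold change of 1.11 (edgeR, adjusted p-value = 0.00284), Ldha of -0.61 (0.00979), Pfkl of -0.35 (0.0358) and Ldhb of 0.44 (0.0172), while that of Pfkp was -0.29 (0.137). Without LeuR 19 instead, Ldhb had a log2 fold change of 0.052, and without LeuR 19 or LeuR 20 neither Ldha nor Aldoc was called. Among the restricted diets themselves, IleR and LeuR differed in 0 of the 10 genes and in 0.0% of all genes, and IleR and ValR likewise in 0 of 10 and in 0.0% of all genes. At an unadjusted p-value under 0.05 these were 3 of the 10 and 2512 of all genes for IleR and LeuR, and 1 of the 10 and 628 of all genes for IleR and ValR; DESeq2 called 3 of the 10 and 0.614% of all genes for IleR and LeuR, and 0 of the 10 and 0.0316% of all genes for IleR and ValR. LeuR-fed males had more Pfkl and Ldha than ValR-fed males, 2 of 10 where 1.03% of all genes were higher, with log2 differences of 0.43 ± 0.10 (SE) for Pfkl (edgeR, adjusted p-value = 0.0491) and 0.54 ± 0.12 for Ldha (0.0484). Both are just past the threshold, and neither was called without Control 1, 3 or 5, ValR 7, 10 or 12, IleR 13 or 14, or LeuR 19 or 21. With only the 2 groups in the fit, or with the hindbrain score as a covariate, 0 of the 10 and 0% of all genes were called. DESeq2 called 3 of the 10 for LeuR against ValR, beside 14.6% of all genes called in either direction.

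**Figure D2:**
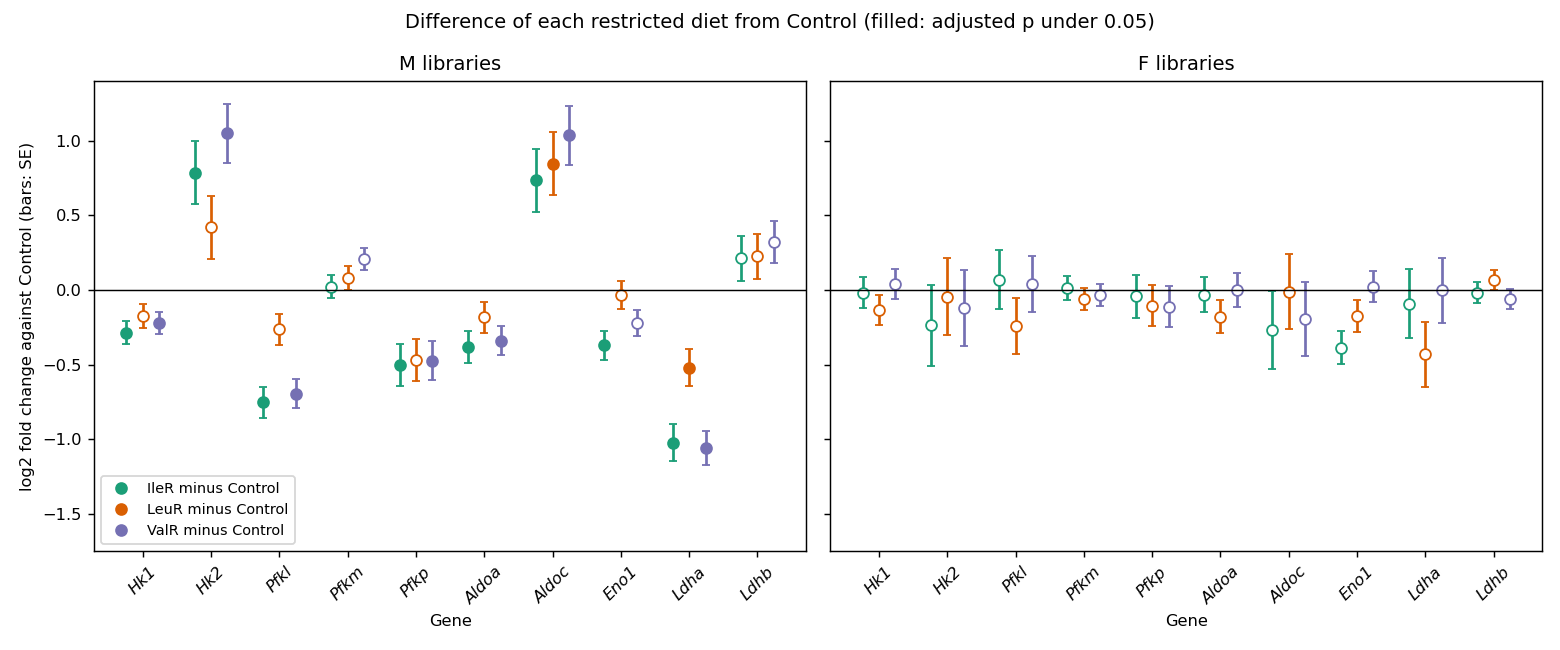
Log2 fold change of each gene (horizontal axis) in each restricted diet against Control, with its SE as the bar, for males (left) and females (right); filled points passed an adjusted p-value of 0.05. In males Ldha is lowest, at -1.02 for IleR and -1.06 for ValR, Hk2 and Aldoc are highest, and in females no point is filled.

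A ratio between 2 genes of the same step does not depend on how a library is scaled. The Ldha to Ldhb ratio of read counts was 0.618, 0.622, 0.463 and 0.459 in the Control-fed males, 0.224, 0.223 and 0.237 in IleR, 0.261, 0.255 and 0.519 in LeuR, and 0.237, 0.179, 0.228 and 0.185 in ValR. All IleR and ValR ratios lay below all Control ratios, and LeuR 21 lay among the Control libraries. The difference in the mean log2 ratio was -1.23 for IleR (two-sided exact permutation test over libraries, p = 0.0571), -0.71 for LeuR (p = 0.171) and -1.38 for ValR (p = 0.0286). The smallest p-value the exact test can give is 0.0571 for 3 against 4 libraries and 0.0286 for 4 against 4.

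The Aldoa to Aldoc ratio was 2.20, 2.08, 1.58 and 2.24 in Control-fed males, 0.936, 0.935 and 0.874 in IleR, 0.774, 0.881 and 1.55 in LeuR, and 0.664, 0.823, 0.790 and 0.794 in ValR. The Control-fed males had more Aldoa reads than Aldoc reads, and all 7 IleR and ValR libraries had more Aldoc reads than Aldoa reads, as did LeuR 19 and 20. The log2 differences were -1.13 in IleR, -0.98 in LeuR and -1.39 in ValR, each with the smallest p-value possible in the exact permutation test. The Hk1 to Hk2 ratio fell from between 48.3 and 89.6 in Control to between 27.3 and 34.1 in IleR and between 23.0 and 33.2 in ValR. The Pfkl to Pfkm ratio fell from between 0.415 and 0.498 in Control to between 0.257 and 0.271 in IleR and between 0.205 and 0.258 in ValR, and the Pfkp to Pfkm ratio from between 0.855 and 1.25 to between 0.673 and 0.795 in IleR and between 0.590 and 0.686 in ValR. Across the 15 ratio comparisons in males, 12 had no overlap with Control and each of these reached the smallest p-value its size allows, which is 0.0714 after Benjamini-Hochberg adjustment over the 15, so that none passed 0.05. The other 3 were LeuR comparisons in which LeuR 21 lay within the Control range.

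**Figure D3:**
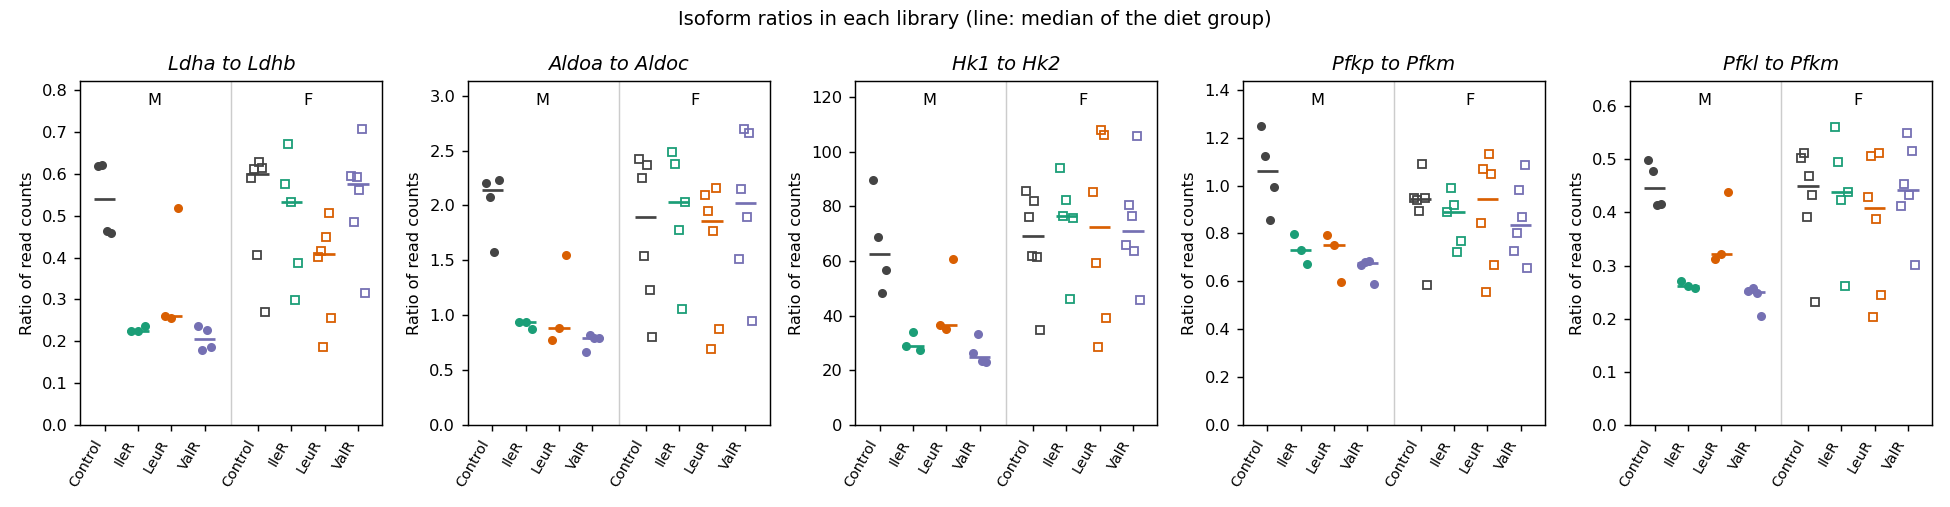
Ratio of read counts of 2 genes of the same enzymatic step (vertical axis, from 0) in each library, by diet and sex, with a line at the median of each group. The Ldha to Ldhb ratio of males lay between 0.459 and 0.622 in Control and between 0.179 and 0.237 in IleR and ValR, and in females every diet overlaps Control for each of the 5 ratios.

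In females none of the 10 genes was called in any diet, and none of the 20344 genes tested was (0.0% in each of IleR, LeuR and ValR with edgeR). An unadjusted p-value under 0.05 was found for 577 genes in IleR, 820 in LeuR and 777 in ValR, among them 1 of the 10, Eno1 in IleR. DESeq2 called 8 genes in IleR, 1 in LeuR and 0 in ValR, limma voom called 1, 0 and 0, and no alternative called any of the 10. All groups overlapped Control for each of the 10, while 0.251% of all genes in IleR, 0.216% in LeuR and 0.128% in ValR had groups apart. Ldha ranged from 125.2 to 260.3 CPM in Control-fed females (median 232.3), from 123.8 to 271.0 in IleR (210.0), from 85.5 to 208.3 in LeuR (168.6) and from 141.6 to 269.6 in ValR (219.9). The log2 fold change of Ldha was -0.09 ± 0.23 (SE) for IleR (edgeR, adjusted p-value = 1.00), -0.43 ± 0.22 for LeuR (0.968) and -0.00 ± 0.22 for ValR (1.00). The lowest Ldha library of each group was Control 30, IleR 41, LeuR 45 and ValR 36.

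Aldoc ranged from 621.9 to 1391 CPM in Control-fed females (median 760.6), from 607.7 to 997.0 in IleR (673.9), from 606.3 to 1311 in LeuR (715.1) and from 512.8 to 1192 in ValR (722.3). Hk2 ranged from 5.03 to 11.2 CPM in Control, from 4.86 to 7.64 in IleR, from 3.75 to 11.5 in LeuR and from 4.76 to 8.27 in ValR. The highest Aldoc library of each group was again Control 30, IleR 41, LeuR 45 and ValR 36. None of the 15 ratio comparisons in females had groups apart (exact permutation test, smallest p = 0.119, for Ldha to Ldhb in LeuR, with an adjusted p of 0.907). The remaining genes varied less, and over all 23 female libraries Ldhb ranged only 1.28-fold, Pfkm 1.38-fold and Hk1 1.58-fold, against 3.17-fold for Ldha, 3.07-fold for Hk2 and 2.71-fold for Aldoc.

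The difference between the sexes was tested directly by a diet by sex interaction in all 37 libraries. It was past the threshold for 1 of the 10 genes, Ldha in ValR, whose log2 fold change was lower in males than in females by 1.07 ± 0.30 (edgeR, adjusted p-value = 0.0379), beside 4.25% of all 22465 genes. Aldoc in ValR had a log2 difference between sexes of 1.21 ± 0.36 (adjusted p-value = 0.0509) and Hk2 in ValR of 1.14 ± 0.36 (0.0601), and neither passed. For ValR DESeq2 called 4 of the 10, beside 12.6% of all genes, and edgeR with RLE size factors 2, beside 4.04%. For IleR 0 of the 10 passed, beside 0.0979% of all genes, and for LeuR 0 of the 10, beside 0.00445%; DESeq2 called 1 of the 10 for IleR, beside 6.36% of all genes, and 0 for LeuR, beside 2.73%. At an unadjusted p-value under 0.05 there were 6 of the 10 for IleR, beside 4280 of all genes, and 1 for LeuR, beside 2911. The sexes also differ in their scores, and the part of the score in the difference was not tested.

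The levels of these genes ran with the hindbrain score in females as well, across diets. Over the 23 female libraries Pearson's r of log2 CPM with the score was 0.91 for Aldoc, 0.82 for Hk2, 0.64 for Pfkm and 0.49 for Ldhb, and -0.90 for Aldoa, -0.89 for Pfkl, -0.86 for Ldha, -0.75 for Pfkp, -0.56 for Hk1 and -0.36 for Eno1. The signs match those of the differences of ValR-fed males from Control for each of the 10 genes. The r of Eno1 leaves out its copy Eno1b, which held 38.8% and 27.7% of their summed counts in IleR 39 and IleR 40, as described below. Spearman's rho was 0.85 for Aldoc, 0.64 for Hk2, -0.80 for Pfkl, -0.73 for Aldoa and -0.73 for Ldha. Without LeuR 45 and Control 30, the 2 libraries farthest from the median score, r was 0.90 for Aldoc, 0.70 for Hk2, -0.81 for Pfkl, -0.81 for Aldoa and -0.74 for Ldha, and 0.27 for Ldhb and -0.26 for Eno1. In males the scores of the Control libraries lay apart from all others, so no r with the score is given for them.

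The 5 female libraries with a score above -1, a line drawn after the scores were seen, were Control 30, IleR 41, LeuR 45, LeuR 48 and ValR 36, which come from all 4 diets. Ldha was at 125.2, 123.8, 85.5, 117.7 and 141.6 CPM in these 5 and between 166.0 and 271.0 in the other 18. Aldoc was at 1391, 997.0, 1311, 1249 and 1192 CPM in the 5 and between 512.8 and 1129 in the other 18, with the top of that range in Control 29, whose score was -2.36. Pfkl was between 93.3 and 131.8 CPM in the 5 and between 151.4 and 218.6 in the others, and Aldoa between 902.2 and 1133 against 1271 and 1515. Hk2 was between 7.64 and 11.5 CPM in the 5 and between 3.75 and 7.42 in the others. The Ldha to Ldhb ratio of the 5, between 0.185 and 0.315, held the male IleR range of 0.223 to 0.237, and their Aldoa to Aldoc ratio lay between 0.688 and 1.06 against 1.23 to 2.70 in the other 18. In the Control-fed female Control 30, Hk2, Pfkl (109.2 CPM), Pfkp, Aldoa (1110 CPM), Aldoc (1391 CPM) and Eno1 lay within the ranges of the ValR-fed males. The other members lay outside those ranges, with Ldha at 125.2 CPM against 86.3 to 111.1, Hk1 at 388.5 against 348.6 to 365.2, Pfkm at 471.0 against 456.4 to 466.8 and Ldhb at 462.7 against 463.6 to 568.5. TMM scaling was done for each sex apart, so gaps as small as those of Pfkm and Ldhb are not read as differences.

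**Figure D4:**
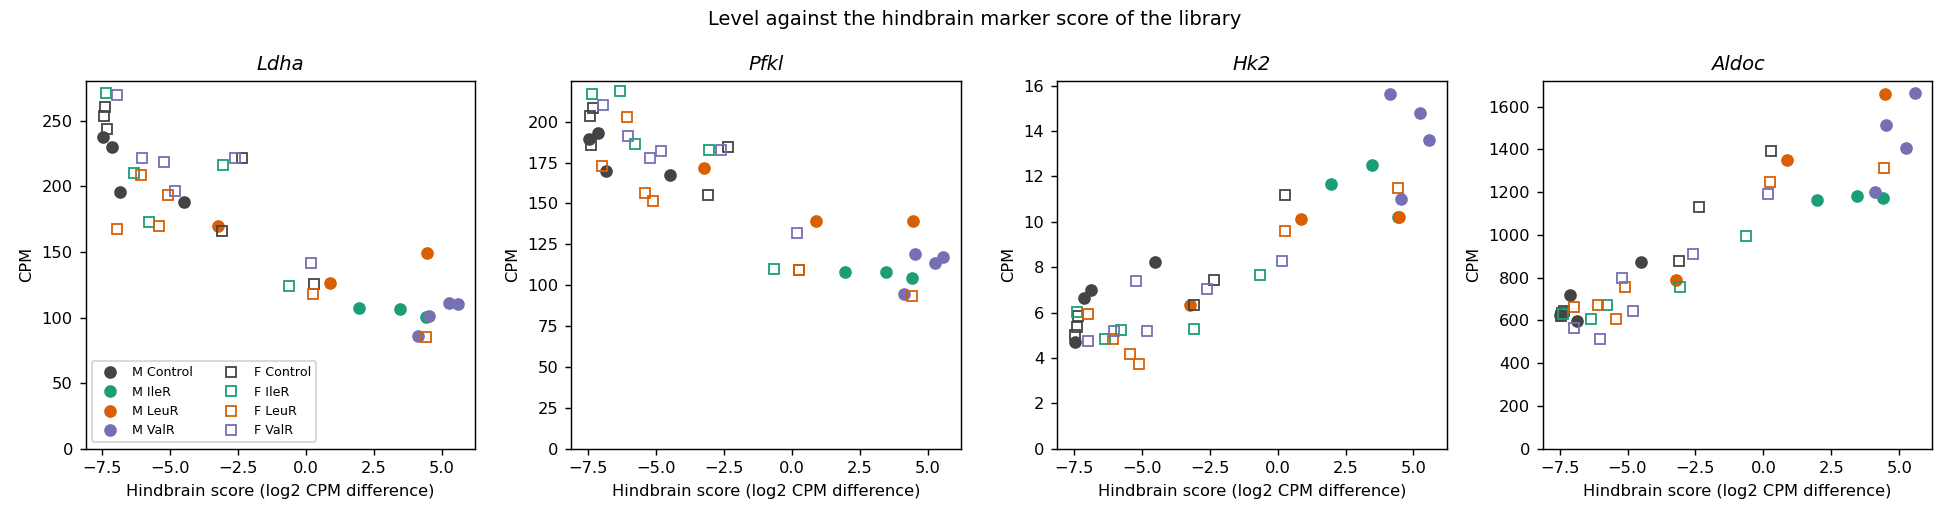
Level in CPM (vertical axis, from 0) of Ldha, Pfkl, Hk2 and Aldoc against the hindbrain score of the library (horizontal axis, a difference of mean log2 CPM), with males as filled circles, females as open squares and diets by colour. Ldha and Pfkl are lower and Hk2 and Aldoc higher in libraries with a high score in both sexes, and the female Control library at a score of 0.27 has Pfkl at 109.2 and Aldoc at 1391 CPM, within the ranges of the ValR-fed males, and Ldha at 125.2 CPM, above theirs.

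With the score as a covariate in the male fit, 0 of the 10 genes were called in IleR, LeuR and ValR, and of all genes 2, 11 and 0 were. In that fit the log2 fold change of Ldha was -0.74 in IleR and -0.73 in ValR and kept its sign, while that of Aldoc turned to -0.57 in IleR, -0.18 in LeuR and -0.49 in ValR. Since no restricted male had a score within the Control range, this fit has few libraries that inform it, and diet and score cannot be told apart in males. Oligodendrocyte markers summed to between 4719 and 9841 CPM in Control-fed males and to between 6639 and 18408 CPM on the restricted diets, and 0 of 8 such markers were called in any diet. Astrocyte markers summed to between 3467 and 4891 CPM in Control-fed males and to between 2587 and 4183 CPM on the restricted diets. Of the 8 astrocyte markers 1 was higher and 1 lower in IleR, 0 higher and 1 lower in LeuR and 3 higher and 1 lower in ValR, with a median log2 fold change of 0.30, 0.23 and 0.43, so that the median was above 0 while the sum was lower. Purkinje cell markers, a list without Aldoc, summed to between 378.7 and 1255 CPM in Control-fed males, 1616 and 4131 in IleR, 387.0 and 1397 in LeuR and 1558 and 5784 in ValR. Of these 7 markers 6 were higher in IleR, 5 in LeuR and 7 in ValR, and 0 were lower. In LeuR the median of the sum was nevertheless 572.5 CPM, below the 856.3 CPM of Control. Some of these markers are also in the cerebellum list that enters the hindbrain score. Markers of neurons in general summed to between 4981 and 6864 CPM in Control-fed males, with a median of 6595, and to medians of 4402 CPM in IleR, 4424 in LeuR and 4485 in ValR, where single libraries ran from 4102 to 4986 CPM. Of these 7 neuronal markers 2 were lower in IleR, 1 in LeuR and 3 in ValR, and 1 was higher in each. Microglia markers summed to between 358.2 and 422.4 CPM in Control-fed males and to between 246.2 and 459.0 CPM on the restricted diets, and of 8 such markers 2 were lower in IleR, 0 in LeuR and 4 in ValR. The part of these cell types in the results, among them the higher Aldoc and the lower Hk1, Slc2a3 and Slc16a7, was not tested. Skeletal muscle markers, of a tissue in which Aldoa and Ldha are abundant, summed to between 4.84 and 8.70 CPM in Control-fed males and between 1.30 and 3.44 CPM in restricted males, and to at most 9.64 CPM in any library. Of the 5 muscle markers tested, 2 were lower in IleR, 1 in LeuR and 2 in ValR, and 0 were higher. Blood markers summed to between 581.3 and 4118 CPM in Control-fed males, 1440.3 and 2053 in IleR, 2525 and 19630.2 in LeuR and 1131 and 5606 in ValR, and choroid plexus markers to between 14.5 and 3005 CPM, 780.3 and 1852, 44.9 and 4865, and 21.0 and 2632. These sums overlapped between Control and each diet, 0 of 5 blood and 0 of 7 choroid plexus markers were called in any diet, and their part in the results was not tested.

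Eno1 has a near-identical copy, Eno1b, whose share of the counts was far higher in 2 female libraries than in the others. Whether this lies in how reads were assigned or in the RNA itself was not tested. Eno1b held 0.159% to 0.474% of the summed Eno1 and Eno1b counts in 35 of the 37 libraries. In female IleR 39 it held 38.8%, at 314.8 CPM, and Eno1 was at 496.9 CPM, the lowest of all females. In female IleR 40 Eno1b held 27.7%, at 207.1 CPM, and Eno1 was at 540.7 CPM. The other 3 IleR-fed females had Eno1 at 799.5, 615.0 and 728.5 CPM, and the Control-fed females had between 726.2 and 914.6. Added together, Eno1 and Eno1b were at 811.7 CPM in IleR 39 and 747.8 CPM in IleR 40, inside the Control range. The log2 fold change of Eno1 in IleR-fed females was -0.38 ± 0.11 (SE) (edgeR, unadjusted p = 0.00224, adjusted p-value = 1.00), and it was -0.17 for the sum. For male IleR the sum changed nothing, with -0.37 for Eno1 alone and for the sum (adjusted p-value = 0.0212). The other copies held few counts, at most 2 for Aldoart1, Aldoart2 and Ldha-ps, 11.0 for Ldha-ps2, and 28 for the second Ensembl identifier that carries the symbol Aldoa, which was left out.

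**Figure D5:**
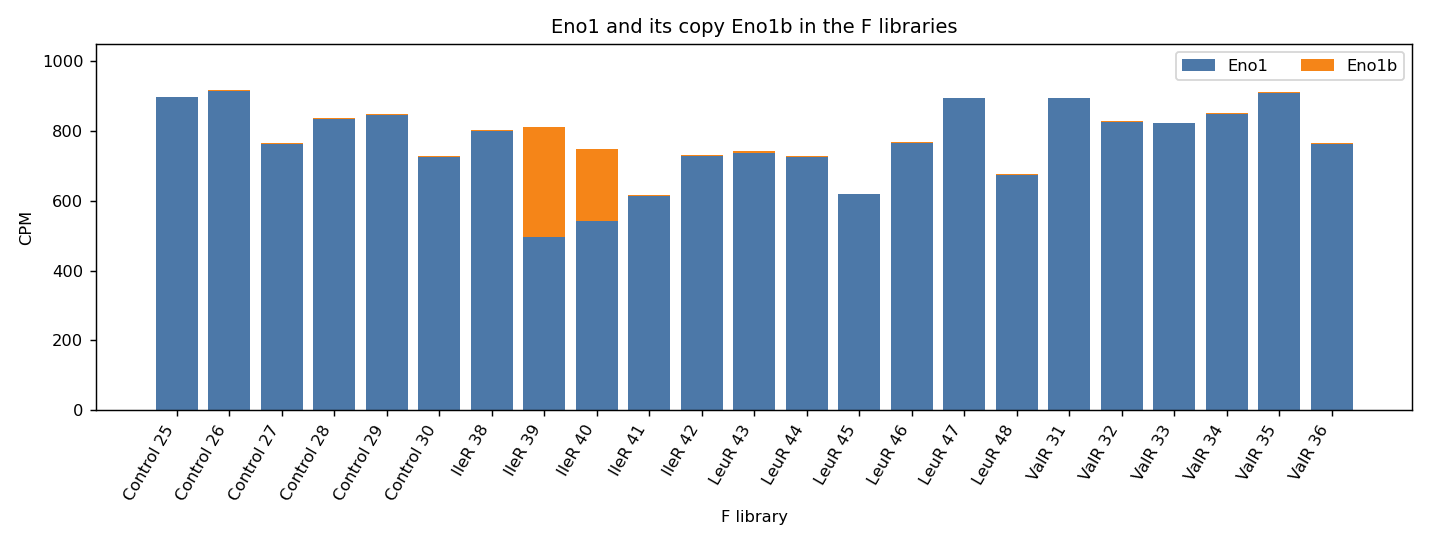
CPM of Eno1 (blue) with that of its copy Eno1b stacked on it (orange), from 0, in each of the 23 female libraries along the horizontal axis. Only IleR 39 and IleR 40 hold a visible share of Eno1b, 38.8% and 27.7%, and their summed bars of 811.7 and 747.8 CPM lie within the range of the Control libraries.

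The 10 genes also varied with one another. Over the 23 female libraries Ldha went with Aldoa (r = 0.95) and Pfkl (0.94), Pfkl with Aldoa (0.95) and Hk2 with Aldoc (0.87), while Ldha went against Aldoc (-0.75) and Ldhb (-0.67). These correlations are descriptions over libraries that share diets and scores. Across 13642 genes, those most like Ldha by the smaller of the male (n = 14) and female (n = 23) Pearson's r were Atp6v0a1 (0.95 and 0.97), Brk1 (0.96 and 0.95) and Atl1 (0.95 and 0.95). Atp6v0a1, a subunit of the proton pump of synaptic vesicles and lysosomes, was also the gene most like Pfkl (0.96 and 0.96), and Atp6v0d1, another subunit of that pump, the one most like Aldoa (0.96 and 0.95). The gene most like Aldoc was Atp1b2 (0.95 and 0.94), a glial subunit of the sodium pump, and Tmem229b was second for both Aldoc and Hk2. The genes most like Ldhb included Chchd3 (0.78 and 0.80) and Uqcrh (0.77 and 0.80), which encode proteins of the mitochondrial inner membrane and respiratory chain. Hk1 was most like Lancl2 (0.89 and 0.89), Hk2 like Mif4gd (0.94 and 0.91), Pfkm like Extl2 (0.83 and 0.84), Pfkp like Tacc1 (0.92 and 0.91) and Eno1 like Exosc9 (0.77 and 0.84).

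Of 18 other glycolytic enzyme genes tested in males, 0 were higher and 2 lower in IleR, 2 higher and 1 lower in LeuR and 0 higher and 3 lower in ValR, with a median log2 fold change of -0.12, 0.19 and -0.19. Over all genes 8.68%, 6.33% and 12.4% were lower and 6.63%, 3.81% and 11.1% higher in these diets, so nothing is read from counts of 1 to 3 genes in a list of this length. Tpi1, triose phosphate isomerase, fell in IleR by 0.33 ± 0.09 (SE) on the log2 scale (edgeR, adjusted p-value = 0.0259) and in ValR by 0.26 ± 0.08 (0.0364). Hkdc1, a hexokinase-like gene of low level, fell in all 3 diets, from a mean of 8.99 CPM in Control to means between 1.59 and 2.01. Pgam2, the muscle phosphoglycerate mutase, fell in ValR from 1.55 to 0.39 CPM. In LeuR-fed males Adpgk, an ADP-dependent sugar kinase, rose by 0.55 ± 0.14 (SE) (edgeR, adjusted p-value = 0.0240). Gapdh had log2 fold changes of -0.14, -0.04 and -0.16 for IleR, LeuR and ValR, Pkm of 0.04, 0.28 and 0.10, and the neuronal enolase Eno2 of -0.30, -0.16 and -0.23, and none of these passed the test (edgeR, smallest adjusted p-value = 0.0668, for Eno2 in IleR).

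The counts of the next 3 lists stand beside 15.3% of all genes called in IleR, 10.1% in LeuR and 23.5% in ValR, and with 6 to 10 genes a list they are given as a description. Of 6 regulators 1 was called, Hif1a, the oxygen-sensitive subunit of HIF. It rose in IleR by a log2 fold change of 0.79 ± 0.13 (SE) (edgeR, adjusted p-value = 0.00219) and in ValR by 0.90 ± 0.13 (0.000309), and stood at a median of 82.5 CPM in Control, 144.3 in IleR, 120.0 in LeuR and 161.2 in ValR. Ldha, a known target of HIF, fell in both of these diets. Hk2, whose promoter window also held ACGTG, rose in both, and Pfkm, the other such gene, was not called in either. HIF protein was not measured, and a link between Hif1a RNA and these genes was not tested. Of 8 transport genes 1 rose and 2 fell in each diet: Slc2a4, the insulin-responsive glucose transporter, rose, and Slc2a3, the neuronal glucose transporter, and Slc16a7, a neuronal lactate and pyruvate transporter, fell. Slc2a3 was between 139.1 and 179.6 CPM in Control-fed males and between 105.8 and 128.5 CPM in the 10 restricted males, with no overlap. Slc16a7 fell from a mean of 40.2 CPM in Control to 20.1 in IleR, 17.2 in LeuR and 20.7 in ValR. Of 10 genes of pyruvate entry, Pdk2 and Pcx rose and Pdk1 fell in IleR and ValR, and Pcx rose in LeuR. Pdk1 and Pdk2 both encode kinases that inhibit pyruvate dehydrogenase, and Pdk1 fell by 0.65 ± 0.12 (SE) in IleR and by 0.67 ± 0.11 in ValR while Pdk2 rose by 0.66 ± 0.14 and 0.90 ± 0.13. In females 0 of the genes of these lists were called in any diet.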

How the data were processed

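RNA from brains of 3xTg mice on 4 diets was sequenced by the authors, who aligned reads to GRCm38.p5 and deposited expected counts, not normalized, for each library and Ensembl gene; the aligner is not given in the sources used here. The labels and methods differ on polyA or total RNA. An expected count shares out reads that match several genes, and between 3.69% and 4.93% of a library's values had decimals. The authors removed clear outliers after principal component analysis. Their deposited log2 fold changes, p-values and adjusted p-values of each diet against Control were not used.

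After rounding, edgeR 4.0.16 (R 4.3.3) gave the tests, with limma 3.58.1 and DESeq2 1.42.0 as alternatives. A gene was tested where some diet group had no library without a count of it (minimum 1), so that 22197 genes were tested in males and 20344 in females, and the 4 diets of a sex were fitted together with TMM scaling and the quasi-likelihood test, with Benjamini-Hochberg adjustment over all genes and a threshold of 0.05. Log2 CPM used a prior count of 2. Ratios were tested by two-sided exact permutation over libraries. Scripts were tested on simulated data. Libraries of 1 group differed by more than counting error in all 18 male and 55 female pairs (lowest chi-square per degree of freedom 8.43). Depth is given in the report, and errors are the spread between libraries.

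The 10 genes, the other glycolysis lists and the marker lists were chosen with earlier results of these data known. Named besides the 10 were listed glycolysis genes past the threshold in any diet comparison, Gapdh, Pkm, Eno2, read-sharing copies, and the 3 genes most like each of the 10 by the smaller of its male and female r, of which the first is given for every gene. Gene models are GENCODE M21, and promoters are RefSeq, GRCm38.p6. No protein sequence was used here. Some named genes under these rules are not reported here.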

Additional observations from a re-analysis of the deposited data

Results flagged for a closer look

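Of 60 groups of 4 to 6 libraries (the 10 genes in male Control, male ValR and the 4 female diets), 2 held a library far from the others by Dixon's test at its 95% critical value, where chance flags about 1 in 20 groups. Aldoa in the ValR-fed females was at 1133 CPM in ValR 36 and between 1381 and 1515 CPM in the other 5, and ValR 36 had the highest hindbrain score of that group, 0.17. Pfkp in the ValR-fed males was at 273.3 CPM in ValR 12 and between 312.2 and 313.3 CPM in the other 3, which lay unusually close together, and ValR 12 was also the lowest of its group for Pfkl, Aldoa, Aldoc, Eno1 and Ldha. The difference of ValR from Control differed between the sexes for Ldha, by -1.07 on the log2 scale (males minus females, edgeR, adjusted p-value = 0.0379), beside scores of 4.12 to 5.57 in ValR-fed males and -6.96 to 0.17 in ValR-fed females.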

How the results depend on the processing

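Of the alternatives, adding the hindbrain score as a covariate changed most: of the 10 genes 0 were called for IleR, LeuR, ValR and LeuR against ValR in males, and of all genes 2, 11 and 0 for the first 3. In that fit the log2 fold change turned for Hk2 (-0.06 in IleR, -0.23 in LeuR), Pfkm (-0.18, -0.072 and -0.030 in IleR, LeuR and ValR), Aldoc (-0.57, -0.18 and -0.49) and Ldhb (-0.53, -0.36 and -0.55); the cause was not tested. Fitting only the 2 groups compared called 0 of the 10 and 0 of all genes for LeuR against Control and 0 of the 10 for LeuR against ValR. That fit also ended the calls of Hk1 in IleR and ValR, and the fit without a filter on low counts those of Hk1 and Aldoa in IleR and ValR. DESeq2 called 4 of the 10 for LeuR, with 3611 of all genes, 3 of the 10 for IleR against LeuR, with 0.614% of all genes, and for the sex difference 1 of the 10 in IleR, with 6.36% of all genes, and 4 in ValR, with 12.6%, where RLE size factors called 2, with 4.04%. DESeq2 added calls for Hk1 and Pfkp in LeuR and Pfkm and Eno1 in ValR, of which voom shared Pfkp and Pfkm, and the 2-group fit added Ldhb in ValR. In females DESeq2 called 8 of all genes for IleR and 1 for LeuR, and voom 1 for IleR. In females the log2 fold change of Aldoa and Ldha in ValR was 0.00 in the reported fit and 0.0026 and 0.025 with voom, 0.00046 and 0.00032 without a filter and 0.017 and 0.050 with the score, and that of Aldoc in LeuR was 0.0030 with 2 groups. RLE size factors kept the direction and the call of each of the 60 differences of the 10 genes from Control, and a prior count of 2 that of each of the 30 ratios.

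Leaving out 1 library at a time, the number of the 10 genes called ran from 2 to 8 for IleR (below 4 without Control 1, Control 3, IleR 13, 14 or 17), from 0 to 4 for LeuR (0 or 1 without Control 1, 3 or 5, LeuR 19 or 20, and 4 without LeuR 21), from 4 to 9 for ValR (4 without Control 3 or ValR 12) and from 0 to 2 for LeuR against ValR. The number of all genes called ran from 1838 to 4357 for IleR (the 4 lowest without Control 1 or 3, IleR 14 or 17) and from 543 to 3952 for LeuR (the 4 lowest without Control 1, 3 or 5 or LeuR 19, the highest without Control 4 and the next, 3340, without LeuR 21), and from 0 to 5 for IleR in females. Hk1 in ValR lost its call without 12 of the 14 libraries in turn. Differences near 0 changed sign with 1 library left out, and their ranges were Pfkm -0.016 to 0.035 in male IleR, Eno1 -0.12 to 0.016 in male LeuR, Hk1 -0.050 to 0.037, Pfkl -0.035 to 0.21, Pfkp -0.12 to 0.015, Aldoa -0.087 to 0.046, Ldha -0.22 to 0.040 and Ldhb -0.054 to 0.019 in female IleR, Hk2 -0.27 to 0.15 and Aldoc -0.16 to 0.17 in female LeuR and Hk1 -0.0037 to 0.080, Hk2 -0.21 to 0.070, Pfkl -0.064 to 0.11, Pfkm -0.057 to 0.011, Aldoa -0.057 to 0.051, Eno1 -0.011 to 0.054 and Ldha -0.11 to 0.092 in female ValR. For the log2 ratios of females they were Ldha to Ldhb -0.25 to 0.093, Aldoa to Aldoc -0.023 to 0.39, Pfkp to Pfkm -0.18 to 0.0028 and Pfkl to Pfkm -0.12 to 0.22 in IleR, Aldoa to Aldoc -0.39 to 0.038, Hk1 to Hk2 -0.20 to 0.21 and Pfkp to Pfkm -0.17 to 0.076 in LeuR and Ldha to Ldhb -0.096 to 0.23, Aldoa to Aldoc -0.024 to 0.38, Hk1 to Hk2 -0.042 to 0.26 and Pfkl to Pfkm -0.073 to 0.20 in ValR. In females the Ldha to Ldhb ratio of LeuR against Control differed by -0.69 on the log2 scale without Control 30 (exact permutation test, p = 0.0173, not adjusted over the 15 ratios). No paired analysis was possible because each library has a number of its own that no library of another diet shares. A gene that was not called is not shown to be unchanged, and the Hk2 levels rest on as few as 48 counts a library.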
